A study of Mus musculus with 24 samples.

Results

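In embryoid bodies grown from mouse embryonic stem cells, 69 genes peaked transiently at day 1. They were chosen by their values in the f/f line: the counts of its 2 libraries in each state were summed, and a gene was taken when it had at least 10 CPM (its count scaled to the library total) at day 1 and stood at least 2-fold above both the state labelled 3i and day 2, with 0.5 added to each CPM. Of 23284 genes in the table, 8946 reached 10 CPM at day 1 in f/f, and 69 of these met the whole rule. The height of the peak in f/f is therefore what chose the genes and is given only as a description. Every test below uses the 3 other lines, whose values the rule did not use. CPM is not corrected for gene length, so levels are compared between samples and not between genes.

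The cells were C57BL/6 mouse embryonic stem cells carrying a conditional Eed gene, grown on feeder layers of embryonic fibroblasts, per the labels' protocols. The line labelled EED f/f was not treated with tamoxifen. The lines labelled EED KO, EED KO+WT EED and EED KO+N-KR EED (KO, KO+WT, KO+N-KR in the following) each received 4-hydroxytamoxifen, which the protocol gives as 800 nM. Every line has 2 poly(A) RNA libraries for each of 3 states, 3i and days 1 and 2 of embryoid body growth, which makes 12 groups. Neither N-KR nor 3i is explained in the labels, which also do not say which driver carries the added EED or whether a line is 1 clone, and give both rescue lines the genotype EED KO, so their groups come from the sample titles. Genotype cannot be told apart from line history in any comparison of lines, nor from tamoxifen where f/f is one of them.

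When embryonic stem cells are taken out of conditions that hold them in the naive state and aggregate into embryoid bodies, they lose naive transcription factors and pass through a formative state that resembles the early postimplantation epiblast. FGF signalling through the kinase ERK drives this step and induces its own inhibitors, among them Sprouty proteins, together with ETS factors of the Etv4 family. EED belongs to the core of PRC2, which places the Polycomb mark on histone H3. Jarid2 and Epop, listed here under its older symbol E130012A19Rik, are accessory subunits of PRC2, and both are among the 69 genes.

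Libraries held 7553683 to 14426034 counts. The variance between paired libraries was 1.1 to 1.18 times that of binomial sampling, so the 2 libraries of each group were summed, which gave 1 sample per line and state with 18017598 to 25160294 counts. The labels do not say that the 2 libraries came from separate cultures, so values within 1 line and state have no biological replicate. The Eed level ran from 105 to 207.5 CPM over the 6 samples of f/f and KO, from 190 to 399 CPM in KO+WT and from 121 to 179 CPM in KO+N-KR, and since the deleted part is not stated it does not check the deletion. Pou5f1, a core pluripotency factor, stood between 796 and 1421 CPM in all 12 samples. Markers of the fibroblast feeders summed to 2872 to 4216 CPM in 3i and to 988 to 1181 CPM at day 1. Ptprc, the pan-leukocyte gene, was at 0.471 CPM or less.

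The sequence at the start of 4 of these genes is shown because they mark the different roles met below: a PRC2 cofactor, 2 transcription factors of the naive and early embryonic state, and the gene that differed between the rescue lines. The windows run from 250 bases before to 50 bases after the annotated start and come from RefSeq on GRCm38.p6, 5′ to 3′ on the gene's strand. Capitals mark matches on either strand to TATAAA (the TATA box), CACGTG (the E-box), TGANTCA (AP-1), TGACGTCA (the cyclic AMP response element, CRE), CTTTGA (the core of the TCF/LEF site), CCGGAA (the core of the ETS site) or the CArG box of SRF. A match describes the letters and is not a site.
Jarid2, chr13:44731021-44731320, plus strand, the second of 2 annotated starts: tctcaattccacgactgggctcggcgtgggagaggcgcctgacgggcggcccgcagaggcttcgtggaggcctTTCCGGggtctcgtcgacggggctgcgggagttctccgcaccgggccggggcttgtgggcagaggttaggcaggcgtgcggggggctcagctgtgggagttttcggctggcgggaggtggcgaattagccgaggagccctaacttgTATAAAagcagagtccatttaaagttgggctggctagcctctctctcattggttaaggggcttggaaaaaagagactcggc
Gbx2, chr1:89931127-89931426, minus strand: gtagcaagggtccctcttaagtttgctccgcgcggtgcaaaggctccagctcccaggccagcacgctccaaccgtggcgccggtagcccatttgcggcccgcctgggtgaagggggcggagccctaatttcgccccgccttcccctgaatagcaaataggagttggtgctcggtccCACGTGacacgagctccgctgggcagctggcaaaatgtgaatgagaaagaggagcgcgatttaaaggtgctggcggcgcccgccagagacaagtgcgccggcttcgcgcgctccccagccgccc
Nr0b1, chrX:86191525-86191824, plus strand: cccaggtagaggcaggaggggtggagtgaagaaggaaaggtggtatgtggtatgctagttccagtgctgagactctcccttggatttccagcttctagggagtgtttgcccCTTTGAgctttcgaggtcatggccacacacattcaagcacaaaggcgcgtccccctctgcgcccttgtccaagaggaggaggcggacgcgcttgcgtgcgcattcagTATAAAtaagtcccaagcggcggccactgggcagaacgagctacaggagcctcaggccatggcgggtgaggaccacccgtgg
Peg3, chr7:6730370-6730669, minus strand: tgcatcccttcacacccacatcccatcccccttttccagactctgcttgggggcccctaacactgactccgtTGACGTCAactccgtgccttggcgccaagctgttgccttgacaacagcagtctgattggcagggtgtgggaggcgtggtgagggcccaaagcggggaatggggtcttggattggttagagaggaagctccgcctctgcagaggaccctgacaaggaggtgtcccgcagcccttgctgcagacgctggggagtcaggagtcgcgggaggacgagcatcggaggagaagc
The Jarid2 window shown held the TATA box and the ETS core, the Gbx2 window the E-box, the Nr0b1 window the TATA box and the TCF/LEF core, and the Peg3 window the CRE. The window at the first annotated start of Jarid2, not shown, held none of the marked motifs. Among 9121 windows of genes with at least 10 CPM at day 1 in f/f, the TATA box was found in 6.4%, the E-box in 10.9%, AP-1 in 4.28%, the CRE in 3.42%, the TCF/LEF core in 11.2%, the CArG box in 1.37% and the ETS core in 30.8%. Only 44 of the 69 genes had a window, under the 80% needed, so a comparison of the whole set with other genes is void and is not reported here.

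In f/f, the day 1 level of the 69 genes ran from 10.3 to 1143 CPM with a median of 40.4 CPM. The ratio of day 1 to the higher of 3i and day 2 had a median of 2.63 and a maximum of 8.11. The genes just inside the 2-fold limit were Nkx6-3 (2.00), Bnc2 (2.01) and Foxd3 (2.02), and those just outside it were Smpdl3b (1.99), Slc7a7 (1.99) and Zfp518b (1.99). The side from which the peak was less steep varied: day 2 was above 3i for 40 of the 69 genes and below it for 29. The day 2 level was at least 2-fold above 3i for 16 genes, among them Myc, and at least 2-fold below it for 4, so most genes returned to within 2-fold of where they had started.

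The peak recurred in the treated lines, which the rule had not used. By the same rule of size, 53 of the 69 genes peaked in KO, against 0.792% of the 9092 genes with at least 10 CPM at day 1 in that line. In KO+WT 49 peaked, against 0.726% of 8955 genes, and in KO+N-KR 59 peaked, against 0.929% of 9038 genes. All 3 treated lines met the rule for 44 genes, 2 of them for 11, 1 of them for 7 and none for 7 (Cphx, Fjx1, Scn3a, Mtap1a, Id1, Foxd3 and Nkx6-3). The median ratio of day 1 to the higher neighbour was 2.40 in KO, 2.40 in KO+WT and 2.74 in KO+N-KR, where the median over all genes with at least 10 CPM lay between 0.902 and 0.917. Genes picked for a high ratio in 1 line lean lower in any other, so the f/f median of 2.63 is no reference for these values.

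**Figure D1:**
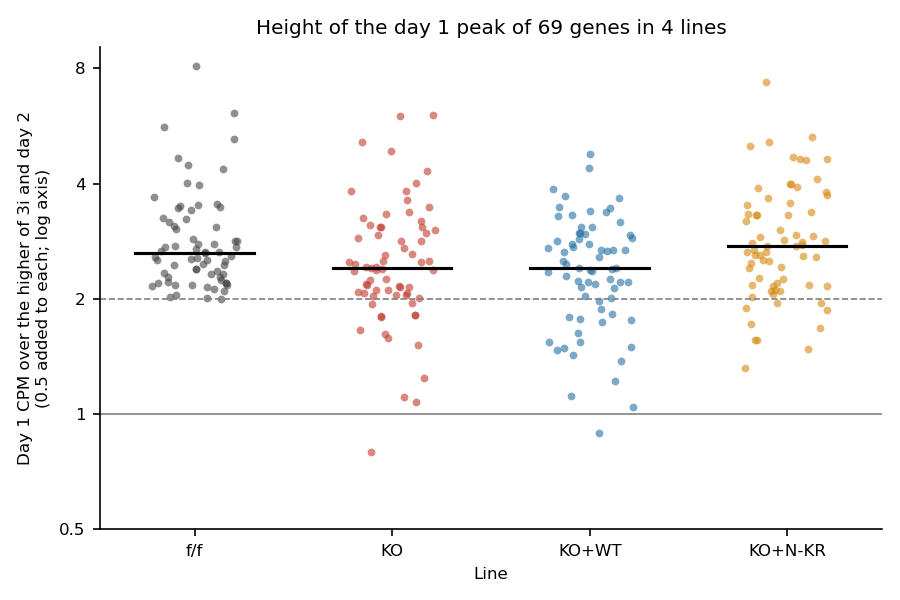
Each point is 1 of the 69 genes in the line named below it, and the vertical axis (log scale) is the day 1 CPM over the higher of the 3i and day 2 CPM, with 0.5 added to each. Black bars are medians (2.63 in f/f, 2.40 in KO, 2.40 in KO+WT and 2.74 in KO+N-KR), the dashed line is the 2-fold limit that chose the genes in f/f, and 1 gene in KO and 1 in KO+WT lie below a ratio of 1.

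Over the 9 samples of the treated lines, with the 3 lines as the samples of a state, day 1 was above both 3i and day 2 past the threshold for 67 of the 69 genes, against 13.6% of 14852 genes tested (edgeR's quasi-likelihood test, Benjamini-Hochberg adjusted p below 0.05 in both contrasts). The 2 genes not called were the homeobox genes Cphx and Nkx6-3. Unlike the 69, the genes tested were not limited to those with at least 10 CPM at day 1 in f/f. Shares of all genes tested are therefore not matched to the 69 for level. The log2 fold change of day 1 against 3i had a median of 1.88 and ran from 0.69 to 4.54, and that against day 2 had a median of 1.58 and ran from 0.50 to 3.22. The medians over all genes tested were -0.02 in both contrasts. Both day 1 libraries were above all 4 libraries of the other states for 67 of the 69 genes in KO, against 19% of all genes tested, for 66 in KO+WT, against 18.1%, and for 69 in KO+N-KR, against 19.2%. The p-values measure how evenly a change recurs over 3 related lines, not the spread of independent cultures. Since the RNA came from whole embryoid bodies, more cells expressing a gene and more RNA per cell cannot be told apart.

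Transcription and chromatin factors formed the largest role group, with 22 of the 69 genes, and 20 of these were called at day 1 over the treated lines; the role groups were drawn up after the values had been seen. Gbx2, a homeobox factor downstream of LIF in embryonic stem cells, went from 7.17 CPM in 3i to 55.8 at day 1 and back to 8.71 at day 2 in f/f. It went from 6.9 to 51.2 to 9.59 CPM in KO, from 9.1 to 48 to 9.62 CPM in KO+WT and from 6.52 to 57.7 to 10.5 CPM in KO+N-KR. In the 3 treated lines every day 1 sample lay far above all samples of 3i and day 2. Over these lines the rise from 3i was 2.89 ± 0.13 and the excess over day 2 2.44 ± 0.12 (log2 ± SE, adjusted p = 1.55e-07 and 1.91e-06). Its day 1 samples thus spanned a narrow range over the 4 lines, and no line contrast of Gbx2 passed the threshold.

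Nr0b1, an orphan nuclear receptor of the naive network, was the only gene of the naive pluripotency list among the 69. Its level in 3i, day 1 and day 2 was 50.1, 220.1 and 55.2 CPM in f/f, 48.8, 185 and 53 CPM in KO, 72.9, 204 and 47.1 CPM in KO+WT, and 66.8, 263 and 66.7 CPM in KO+N-KR. It rose from 3i by 1.87 ± 0.12 in the treated lines, while 13 of the 15 genes of that list fell over the same step. In KO+WT its day 2 sample was below its 3i sample.

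Myc, a driver of growth and of ribosome production, had the steepest entry among the transcription factors. In f/f it stood at 1.66, 71.9 and 20.1 CPM, and in the treated lines it went from 3.16 to 5.05 CPM in 3i to 66.4 to 72.3 CPM at day 1 and 17.3 to 25.4 CPM at day 2. The rise from 3i was 4.29 ± 0.18 (adjusted p = 1.08e-07) and day 1 exceeded day 2 by 1.81 ± 0.14 (adjusted p = 1.44e-05). In the treated lines its day 1 samples did not overlap those of any other state, and day 2 remained above 3i in all 4 lines. Of the 17 other immediate early genes tested, none was above both states at day 1, whereas in the list of ribosome biogenesis and MYC targets 10 of the 19 genes besides Myc were above both states at day 1.

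Jarid2 and E130012A19Rik (Epop) are the PRC2 subunits of the group. Jarid2 stood at 269, 748 and 344 CPM in f/f, 278, 763 and 374 CPM in KO, 352, 778 and 323 CPM in KO+WT, and 369.5, 803 and 360.2 CPM in KO+N-KR. E130012A19Rik stood at 117, 254 and 106 CPM in f/f, 121, 314 and 129 CPM in KO, 154, 226 and 99.7 CPM in KO+WT, and 105, 228 and 104 CPM in KO+N-KR. Both were highest at day 1 in every treated line, although the rise of E130012A19Rik in KO+WT was below 2-fold. In the treated lines Jarid2 rose by 1.32 ± 0.09 from 3i and exceeded day 2 by 1.19 ± 0.09 (adjusted p = 1.91e-06 and 1.11e-05), and E130012A19Rik by 1.09 ± 0.13 and 1.24 ± 0.13 (adjusted p = 6.85e-05 and 6.94e-05). No line contrast of either gene passed the threshold.

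Other regulators followed the same course. Tle4, a corepressor of the Groucho family, had 88.3, 363.5 and 168 CPM in f/f and 313 to 367 CPM at day 1 in the treated lines, and it rose from 3i by 1.80 ± 0.06. Epas1, the hypoxia-inducible factor HIF-2alpha, had 44, 187 and 68.8 CPM in f/f and rose by 1.85 ± 0.15, while none of 26 hypoxia genes tested was above both states at day 1. Zfp423, a zinc finger factor that can partner SMAD proteins, had 4.66, 53.1 and 15.2 CPM in f/f and rose by 3.57 ± 0.11. Tcf15, a basic helix-loop-helix factor that primes stem cells for differentiation and that Id proteins oppose, had 10.7, 73.8 and 26.3 CPM in f/f and rose by 3.03 ± 0.15. Csrnp1, a nuclear protein, had 20.1, 50.3 and 24.2 CPM in f/f and had 1 of the lowest ratios in KO, with 42.9 CPM at day 1 against 28.1 at day 2. The remaining 5 factors (Sall3, Hopx, Zfp428, Nfatc2 and Bnc2) were all called at day 1, with 11.9 to 88.4 CPM at day 1 over the 4 lines and ratios to the higher neighbour of 1.49 to 3.45 in the treated lines.

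**Figure D2:**
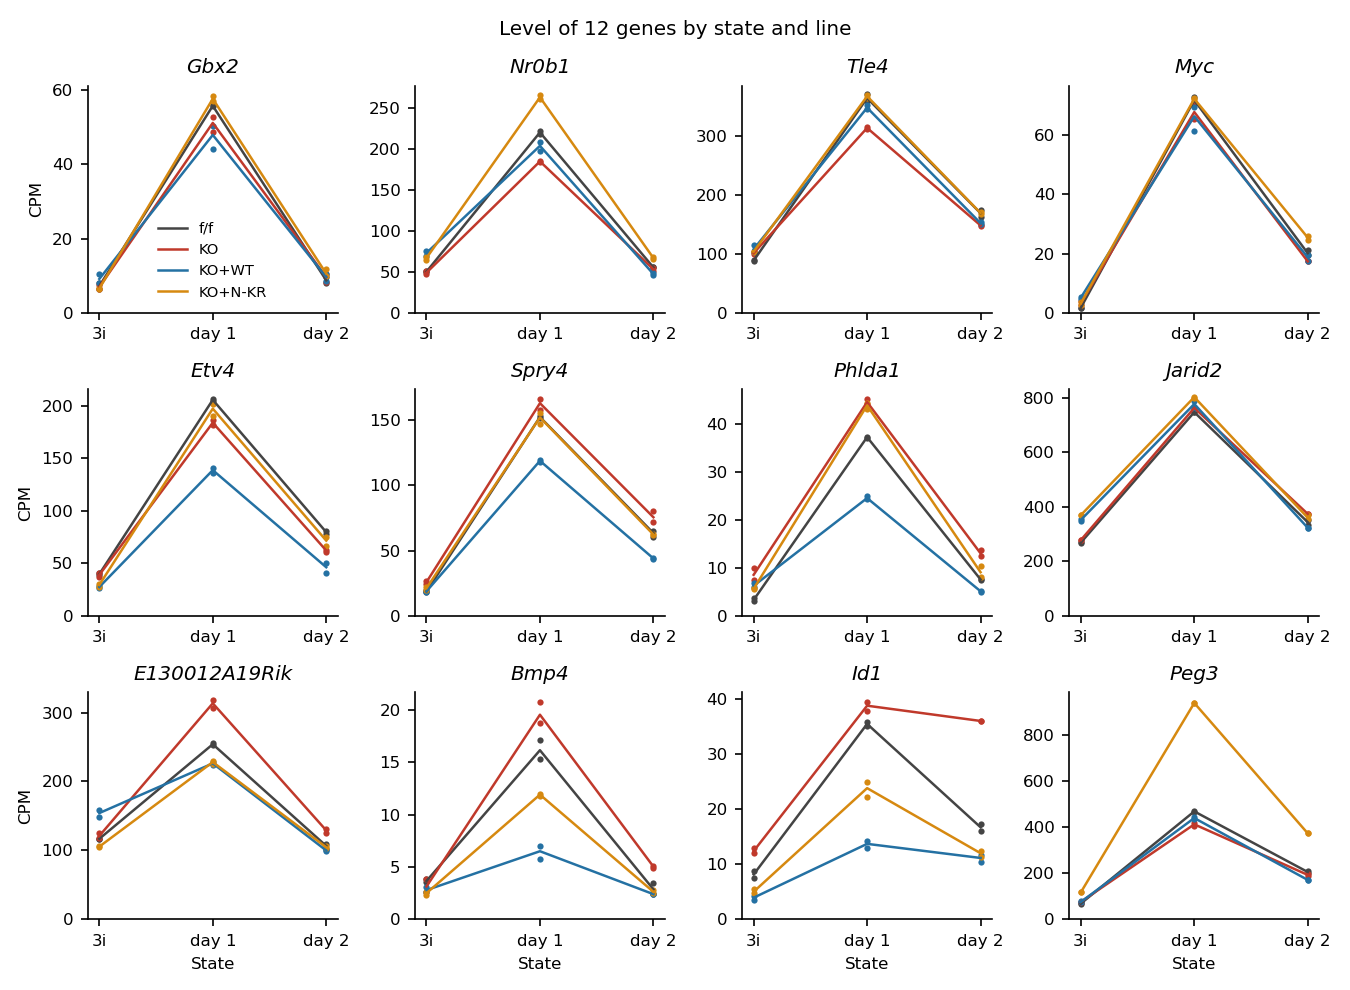
The panels show the CPM (vertical axis, linear from 0, a scale for each gene) of 12 of the genes in 3i, day 1 and day 2, with a line through the summed libraries of each cell line and a dot for each library. In every panel but that of Id1 each cell line falls clearly after day 1, which in f/f was fixed by the choice of the genes. Id1 in KO goes from 38.7 to 35.9 CPM, and Peg3 reaches 939 CPM in KO+N-KR against 412 to 468 CPM in the other lines.

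Among the genes of signalling inside the cell, 9 of 9 were called at day 1. Spry4, a Sprouty inhibitor of receptor tyrosine kinase signalling, stood at 18.7, 152 and 63.3 CPM in f/f, 25.8, 163 and 75.4 CPM in KO, 18.8, 119 and 43.9 CPM in KO+WT, and 21.2, 152 and 62.2 CPM in KO+N-KR. Phlda1, a pleckstrin homology domain protein induced by ERK, stood at 3.32, 37.3 and 7.58 CPM in f/f, 8.57, 44.6 and 13 CPM in KO, 6.27, 24.6 and 5.13 CPM in KO+WT, and 5.64, 43.9 and 9.1 CPM in KO+N-KR. The ETS factor Etv4 stood at 39.7, 205.5 and 79.6 CPM in f/f, 39, 184 and 62.1 CPM in KO, 27.5, 139 and 46.3 CPM in KO+WT, and 29.5, 197 and 71.6 CPM in KO+N-KR. For these 3 genes of the FGF-ERK feedback list, KO+WT had the lowest day 1 sample of the 4 lines and the lowest day 2 sample. Over the treated lines Spry4 rose from 3i by 2.80 ± 0.08, Phlda1 by 2.53 ± 0.18 and Etv4 by 2.51 ± 0.11, and they exceeded day 2 by 1.32 ± 0.07, 2.13 ± 0.17 and 1.58 ± 0.10.

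Other signalling genes were also among the 69. Dusp27, named after the dual-specificity phosphatases, had 18.1, 44 and 17 CPM in f/f. The PDZ protein gene Pdzd2 had 1.26, 11.3 and 2.71 CPM in f/f and rose by 2.47 ± 0.17. Arhgef26, Mcc, Pde9a (a cyclic GMP phosphodiesterase), Cdkl2 and Gfod1 had 12 to 35.1 CPM at day 1, and each met the 2-fold rule in all 3 treated lines.

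Secreted factors and enzymes made up 7 of the 69 genes, and all 7 were called at day 1. Bmp4, a ligand of the BMP family, stood at 3.65, 16.2 and 2.84 CPM in f/f, 3.12, 19.6 and 5.02 CPM in KO, 2.78, 6.5 and 2.38 CPM in KO+WT, and 2.48, 11.9 and 2.61 CPM in KO+N-KR. Day 1 was highest in each treated line, and the KO+WT day 1 sample was below the day 1 sample of every other line. Notum, an extracellular enzyme that inactivates WNT proteins, stood at 5.23, 19.8 and 3.88 CPM in f/f, 6.81, 21.2 and 6.64 CPM in KO, 5.88, 14.6 and 2.86 CPM in KO+WT, and 3.11, 10 and 2.66 CPM in KO+N-KR. Pla2g7, the hydrolase of platelet-activating factor, went from 0.777 to 1.89 CPM in 3i to 13.7 to 31.5 CPM at day 1 over the 4 lines and rose by 4.09 ± 0.20 in the treated lines. Fjx1 and Aoah were above both states with smaller margins over day 2 (0.75 ± 0.17 and 0.97 ± 0.20), and Crisp1 and Trf (transferrin) had ratios of 2.09 to 3.31 in the treated lines.

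Id1, an inhibitor of basic helix-loop-helix factors and a direct target of BMP signalling, changed its time course between lines. In f/f it had 8.11, 35.4 and 16.7 CPM, and in KO it had 12.3, 38.7 and 35.9 CPM, so that day 2 ended close to day 1 in KO. In KO+WT it had 3.89, 13.6 and 11.1 CPM and in KO+N-KR 4.96, 23.8 and 12 CPM. The excess of day 1 over day 2 across the treated lines was 0.50 ± 0.14 (adjusted p = 0.0141), and it was not past the threshold without KO+WT (0.56, adjusted p = 0.054) or without KO+N-KR (0.26, adjusted p = 0.0914). With 1 sample per line and state, the difference in time course between lines cannot be tested. Of the other 14 genes of the BMP and Id list that were tested, none was above both states at day 1, and 7 fell from 3i to day 1.

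Receptors, adhesion molecules, channels and transporters made up 8 genes, all called at day 1. Scn3a, a sodium channel gene, reached 9.44, 6.26 and 7.86 CPM at day 1 in the treated lines and so missed the 10 CPM of the rule in each. A further 6 were Nrp2 (a co-receptor for semaphorins), Plaur (the urokinase receptor), Itga3, Spn, 9030425E11Rik (Clmp) and Cntfr (the ciliary neurotrophic factor receptor), with ratios of 1.58 to 4.02 in the treated lines.

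The cytoskeleton, trafficking and calcium group held 7 genes, all called at day 1. Tmsb4x, which binds actin monomers, stood at 127, 395 and 123 CPM in f/f and between 277.5 and 325 CPM at day 1 in the treated lines, with a rise of 1.69 ± 0.11 and an excess over day 2 of 1.36 ± 0.10. Exoc3l, related to an exocyst subunit, went from 5.94 to 7.82 CPM in 3i to 47.4 to 84.9 CPM at day 1 and rose by 3.22 ± 0.09 in the treated lines. Ttn, the giant muscle protein titin, had 11.7, 34.5 and 6.18 CPM in f/f. Mtap1a, a microtubule-associated protein, had 18.5, 54.3 and 24.4 CPM in f/f and missed the 2-fold rule in all treated lines. At day 1 and day 2 it had 90.2 and 50.1 CPM in KO, 41.1 and 26.5 CPM in KO+WT, and 66.2 and 34.8 CPM in KO+N-KR. Myo1f, S100a6 and Capn2 completed the group, with 18.5 to 78 CPM at day 1.

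RNA-binding and innate sensing made up 6 of the 69 genes, all called at day 1. G3bp2, a stress granule protein, stood at 332, 1143 and 518 CPM in f/f, 349.8, 1112 and 360.4 CPM in KO, 443, 1416 and 634 CPM in KO+WT, and 327, 1379 and 706 CPM in KO+N-KR. Ddx58 (RIG-I, a sensor of viral RNA) stood at 16.3, 74.4 and 23.7 CPM in f/f and reached 59.4, 87.8 and 119 CPM at day 1 in KO, KO+WT and KO+N-KR. The inflammasome gene Nlrc4 had 1.74, 28.3 and 6.09 CPM in f/f and rose by 3.68 ± 0.15 in the treated lines. Of the 12 other genes tested from the interferon and innate immunity list, 1 was above both states at day 1. Mex3b had 20.2 CPM at day 1 in f/f and 12, 19.5 and 28.4 CPM in the treated lines, and its rise from 3i (0.80 ± 0.18, adjusted p = 0.00291) was not past the threshold without KO+N-KR (0.61, adjusted p = 0.0611). D1Pas1, a near-identical copy of Ddx3x, is uncertain because reads can be split between the copies.

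Purine salvage, DNA repair and redox genes completed the named roles. Pnp and its neighbouring near-identical copy Pnp2, which can share reads, 8430410A17Rik (Hmces, which protects abasic sites in DNA) and Enox1 had 68.9 to 229.6 CPM at day 1, and each met the 2-fold rule in all 3 treated lines. Of the genes with no role given here, 6330407J23Rik went from 0.932 to 22.5 to 4.65 CPM in f/f and had the steepest rise of all 69 genes in the treated lines (4.54 ± 0.29). AU015836 behaved differently between lines: it fell back to 10.1, 12.6 and 17.9 CPM at day 2 in f/f, KO+WT and KO+N-KR and stayed at 44.9 CPM in KO, against 55.9 CPM at day 1. Its call rests on KO+N-KR, without which the excess over day 2 was 1.00 (adjusted p = 0.112) and the rise from 3i 1.15 (adjusted p = 0.068). So does that of D630045M09Rik, whose rise from 3i was 0.71 ± 0.19 with all treated lines (adjusted p = 0.0086) and 0.45 without KO+N-KR (adjusted p = 0.106). Peg3as, antisense to the imprinted gene Peg3, stood at 12.5, 77.3 and 35.2 CPM in f/f. No source used here gives the strand setting of the counts, which leaves Peg3 and Peg3as inseparable, and 25 of 68 genes that could be placed have exons overlapping another annotated gene.

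The other genes of the pathways around these members were tested over the treated lines. Of 15 FGF-ERK feedback genes, 14 rose from 3i to day 1 and 8 were above both states at day 1. Besides Spry4, Etv4 and Phlda1 these were Etv1 (3.36 ± 0.15 over 3i and 1.24 ± 0.13 over day 2), Spry2 (0.24 ± 0.08 and 0.71 ± 0.08), Dusp6 (2.26 ± 0.12 and 0.49 ± 0.11), Spred1 and Spred2. Egr1 was the exception and fell from 3i by 3.41 ± 0.12. The share above both states was 5 of 12 without the 3 members, against 13.6% of all genes tested.

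Of 12 PRC2 subunits, 5 were above both states at day 1: the 2 members with Phf19, Aebp2 and Rbbp4. Without the 2 members, which were chosen for such a peak in f/f, it was 3 of 10, against 13.6% of all genes tested. The rise of Phf19 from 3i was 1.42 ± 0.22 and its excess over day 2 0.68 ± 0.21, whereas Aebp2 and Rbbp4 moved by 0.21 to 0.56. Ezh2, the catalytic subunit, was not called in either contrast (-0.01 ± 0.05 and 0.09 ± 0.05), and Ezh1 was lower at day 1 than in 3i and at day 2. Of 19 formative and primed epiblast genes, 17 rose from 3i to day 1 but only 5 also exceeded day 2, and 3 of these are members (Foxd3, Tcf15 and Etv4). Without the 3 members, 2 of 16 were above both states, near the share of all genes tested. Of the others of that list that rose, Pou3f1 (4.41 ± 0.20 over 3i) and Otx2 (3.06 ± 0.20) were not called against day 2 (-0.13 ± 0.15 and 0.12 ± 0.17). Of the 19 genes, 5 were lower at day 1 than at day 2, among them Fgf5 (-1.47 ± 0.18). Of 25 proteasome genes, 20 were above both states at day 1, with a median rise from 3i of 0.47 (log2), below the 2-fold of the rule. None of 18 feeder fibroblast genes was above both states and 14 fell from 3i to day 1. The 69 genes hold no gene of the marker lists used here for feeders, endoderm, trophoblast, blood and endothelium, or neurons. These lists are short, so other genes expressed in such cells can be among the 69.

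**Figure D3:**
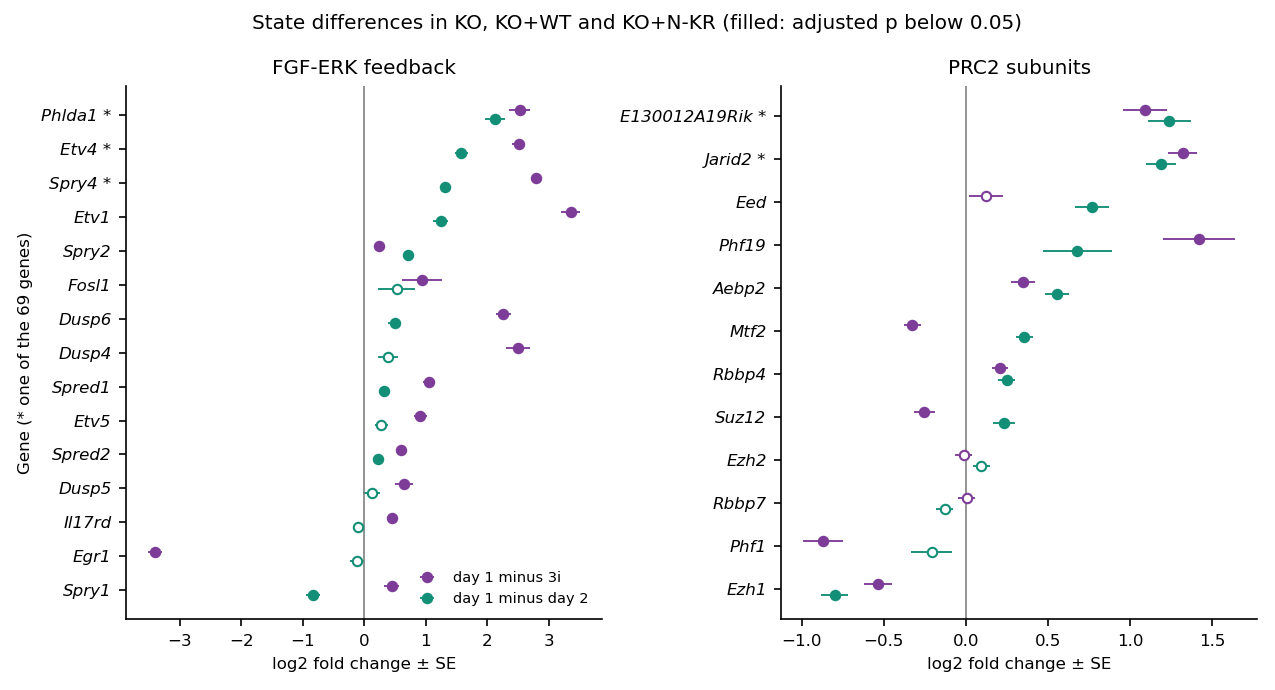
Points are log2 fold changes of day 1 against 3i (purple) and against day 2 (green) over KO, KO+WT and KO+N-KR, with bars of 1 SE, for the FGF-ERK feedback list and the PRC2 subunits; filled points have an adjusted p below 0.05 and asterisks mark genes of the 69. Genes with both points filled and to the right of 0 are above both states at day 1, which holds for 8 FGF-ERK genes and 5 PRC2 subunits.

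Lines were then compared over the 3 states, with the states as the samples of a line. The p-values measure how evenly a line difference recurs over the states, not the spread of independent clones or cultures. Since genotype cannot be told apart from line history, they cannot show that a level depends on the EED that was added back. In KO+WT against KO, 13 of the 69 genes (18.8%) were lower, against 8.05% of all genes tested, and 6 (8.7%) were higher, against 6.5%. The shares of all genes tested, here and in the other line contrasts, are not matched to the 69 genes for level. The median log2 fold change of the 69 genes was -0.11, and that of all genes tested was 0.01. With 3i left out, 23 were lower and 8 higher. With day 1 left out, 1 was lower and 2 higher, and with day 2 left out, 5 were lower and 5 higher. Each of these fits had 2 residual degrees of freedom. Their coefficient of variation was 6.35% without 3i, 10.1% without day 1 and 7.22% without day 2, against 8.13% with all states. The share of all genes called in them is not given, so whether the changes in count are particular to the 69 genes was not tested.

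The lower genes included members of the BMP axis and all 3 FGF-ERK feedback genes. Id1 fell by 1.60 ± 0.15 on the log2 scale (adjusted p = 0.000317), and its KO+WT sample was below the KO sample in 3 of 3 states. Bmp4 fell by 1.03 ± 0.23 (adjusted p = 0.0177), and was not past the threshold without day 1 (-0.63, adjusted p = 0.325) or without day 2 (-1.06, adjusted p = 0.0835). Phlda1 fell by 0.88 ± 0.17 (adjusted p = 0.0101; without day 1 -0.88 and 0.161, without day 2 -0.70 and 0.0802). Spry4 fell by 0.55 ± 0.08 (adjusted p = 0.00194) and Etv4 by 0.43 ± 0.10 (adjusted p = 0.0214). Neither was past the threshold without day 1 (-0.61, adjusted p = 0.0797, and -0.45, adjusted p = 0.216), nor was Etv4 without day 2 (-0.44, adjusted p = 0.0619). In KO+WT the day 1 sample of each of these 5 genes was still the highest of the 3 states. Among the 12 other FGF-ERK feedback genes 1 was lower (Dusp4, -0.78 ± 0.18) and 2 were higher (Spry2 and Etv5), and among the 14 other BMP and Id genes 2 were lower (Bmpr1a and Bmpr2) and 1 higher (Msx1).

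Mtap1a fell by 1.06 ± 0.15 (adjusted p = 0.00227; without day 1 -1.03 and 0.0781). Nkx6-3 fell by 1.59 ± 0.38 (adjusted p = 0.0227), from 3.25, 8.94 and 1.89 CPM in KO to 2.44, 2.12 and 0.239 CPM in KO+WT, so in KO+WT its day 1 sample was not above 3i. With day 1 left out its difference was -1.32 (adjusted p = 0.297), and with day 2 left out it was -1.30 (adjusted p = 0.0808). Zfp423 fell by 0.65 ± 0.10, Notum by 0.60 ± 0.17, Tcf15 by 0.51 ± 0.14, Pla2g7 by 0.75 ± 0.19, Capn2 by 0.59 ± 0.16 and Trf by 0.52 ± 0.12. None of these 6 was past the threshold without day 1 (adjusted p = 0.1, 0.287, 0.207, 0.262, 0.161 and 0.138 in that order), and without day 2 Notum, Tcf15, Capn2 and Trf were not past it either (0.164, 0.23, 0.223 and 0.0653). Id1 was the only gene lower in KO+WT that was past the threshold without day 1 (adjusted p = 0.0128). The lower genes thus came from several roles, and no line difference of Gbx2, Myc, Jarid2 or Tle4 passed the test.

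Among the higher genes, Dusp27 rose by 1.08 ± 0.11 (adjusted p = 0.000481), with 39.6, 93.6 and 31.4 CPM in KO+WT against 22.2, 37.2 and 15.9 CPM in KO. Foxd3, a forkhead factor of the pluripotent epiblast, rose by 0.88 ± 0.12 (adjusted p = 0.00159), with 52.9, 73 and 39 CPM against 27, 49.5 and 18.2 CPM. Each KO+WT sample of these 2 genes was above the KO sample of the same state. Ddx58 rose by 0.54 ± 0.10, and D1Pas1 by 0.66 ± 0.11, Ttn by 0.61 ± 0.14 and D630045M09Rik by 0.77 ± 0.20, none of these 4 past the threshold without day 1 (adjusted p = 0.138, 0.143, 0.157 and 0.176). Without day 2 Ddx58 was at 0.49 (adjusted p = 0.0779) and D630045M09Rik at 0.93 (adjusted p = 0.0596). Foxd3 already stood at 52.9 CPM in 3i in KO+WT, against 11.7 CPM in f/f. Feeder markers summed to 4216 CPM in 3i in KO+WT against 3310 CPM in KO, 8 of 18 feeder genes were higher in KO+WT, and their part in the line differences was not tested.

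KO+N-KR against KO gave 11 higher genes (15.9%), against 6.11% of all genes tested, and 5 lower (7.25%), against 7.95%. Foxd3 rose by 0.98 ± 0.12 (adjusted p = 0.00112) and Dusp27 by 0.86 ± 0.11 (adjusted p = 0.00135), close to their changes in KO+WT, which was compared with the same KO samples. Id1 fell by 1.15 ± 0.14 (adjusted p = 0.00135). Notum fell by 1.15 ± 0.18 (adjusted p = 0.00321), Mtap1a by 0.70 ± 0.15, Zfp423 by 0.66 ± 0.10 and Tcf15 by 0.52 ± 0.14. Peg3 and Peg3as rose by 0.96 ± 0.09 and 0.98 ± 0.12, and Ddx58 by 0.75 ± 0.10, with Mex3b, D630045M09Rik, 9030425E11Rik, Ociad2, Nr0b1 and D1Pas1 also higher. Without 3i, day 1 or day 2 the counts of higher and lower genes were 21 and 10, 1 and 1, or 6 and 3. The share of all genes called in the same fits is not given. Of the named genes here, Foxd3 and Id1 were past the threshold without any 1 state; without day 1 the adjusted p was 0.0614 for Dusp27, 0.101 for Notum, 0.088 for Mtap1a, 0.0792 for Zfp423, 0.152 for Tcf15, 0.0792 for Peg3as, 0.05 for Peg3 and 0.0958 for Ddx58, and without day 2 0.0532 for Mtap1a and 0.0981 for Tcf15. Mex3b, D630045M09Rik, 9030425E11Rik, Ociad2, Nr0b1 and D1Pas1 were past the threshold neither without day 1 (adjusted p = 0.257, 0.311, 0.315, 0.206, 0.251 and 0.302 in that order) nor without day 2 (0.0681, 0.133, 0.0606, 0.127, 0.0517 and 0.0532).

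KO+N-KR against KO+WT separated few genes past the threshold. Peg3 and Peg3as were higher, 2 of the 69, against 0.249% of all genes tested. No member was lower, against 0.182% of all genes tested, and DESeq2 called 0 lower. At an unadjusted p below 0.05 by edgeR, 17 members were higher and 2 lower, against 496 and 580 of the 14852 genes tested. The log2 fold change was above 0 for 49 of the 69 genes, and the share of all genes tested above 0 is not given. Its median was 0.095 in the 69 genes and 0.0026 over all genes tested. Peg3, a zinc finger gene expressed from the paternal copy, stood at 67.5, 468 and 205 CPM in f/f, 74.9, 412 and 192 CPM in KO, 74.4, 439 and 170.2 CPM in KO+WT, and 116, 939 and 373 CPM in KO+N-KR. The 3 other lines were close to each other in each state and KO+N-KR lay above them in all 3 states. The difference from KO+WT was 0.97 ± 0.09 for Peg3 (adjusted p = 0.00175) and 0.92 ± 0.12 for Peg3as (adjusted p = 0.00803). Of 28 other genes tested from the imprinted list, 2 were higher in this contrast and 1 was lower (Grb10, -0.76 ± 0.12). Among the higher ones was Impact (0.93 ± 0.07, adjusted p = 0.00018), with 191, 193 and 242 CPM in KO+N-KR against 98.5, 98.7 and 133 CPM in KO+WT. With day 1 left out, the difference was 0.91 for Peg3 (adjusted p = 0.0814) and 0.81 for Peg3as (adjusted p = 0.416). With day 2 left out it was 0.87 (adjusted p = 0.057) and 0.82 (adjusted p = 0.143). Thus no member was called in either fit, and 5 were with 3i left out, where the share of all genes called is not given. Reads of Peg3 and Peg3as may be the same reads, so they are not separate evidence. In the same edgeR fit, Eed itself was lower in KO+N-KR than in KO+WT (-0.96 ± 0.10, adjusted p = 0.00417). The form of the added EED and the Eed RNA level therefore cannot be told apart between these lines. Against KO, Eed was higher in KO+WT (1.16 ± 0.105, adjusted p = 0.000282) but not past the threshold in KO+N-KR (0.20 ± 0.105, adjusted p = 0.23).

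**Figure D4:**
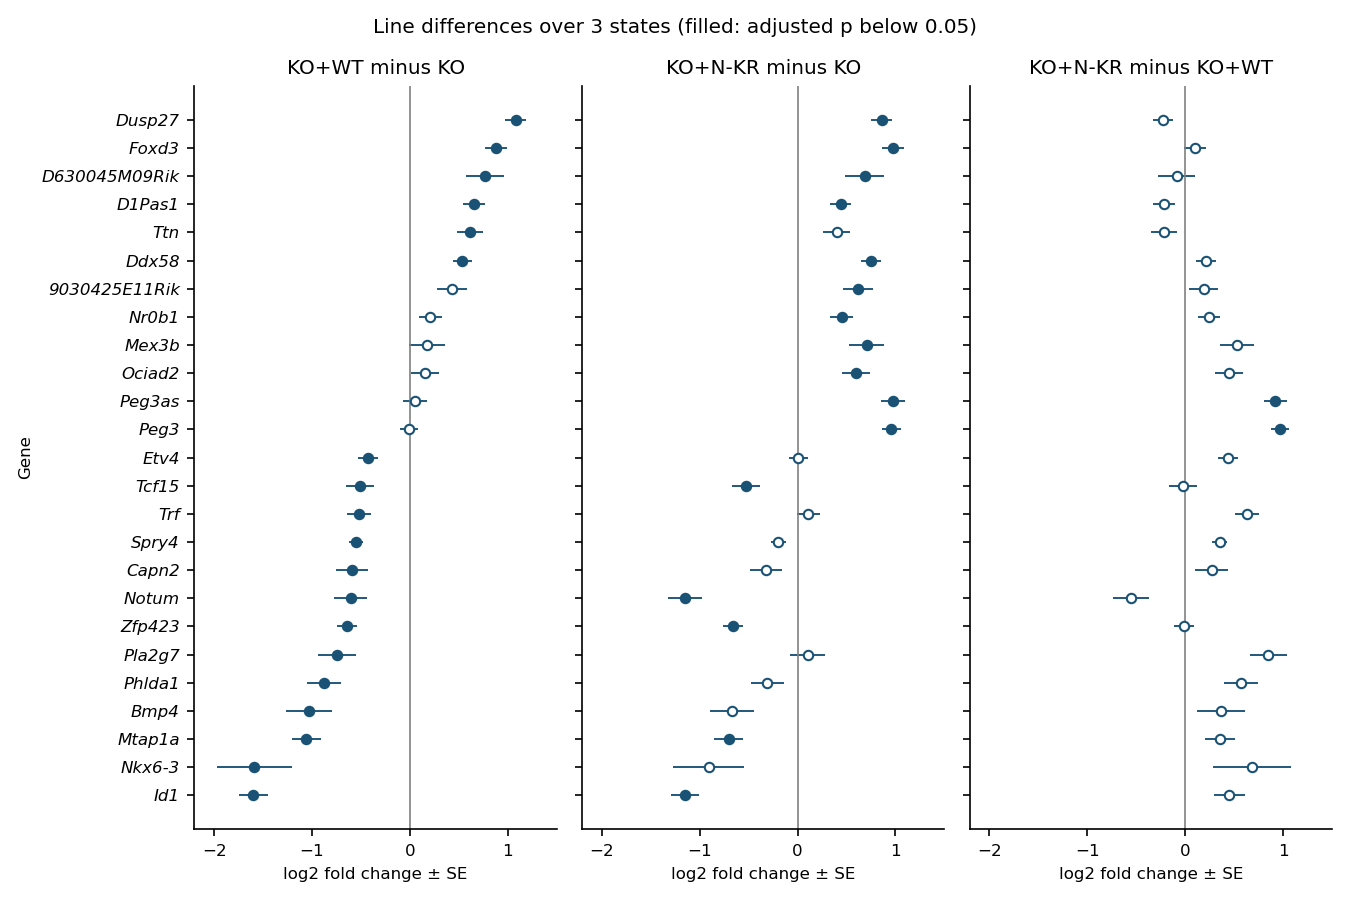
Points are log2 fold changes ± 1 SE over 3 states for every gene of the 69 that passed the threshold in a line contrast (filled: adjusted p below 0.05). KO+WT against KO has 6 filled points to the right and 13 to the left of 0, KO+N-KR against KO 11 and 5, and KO+N-KR against KO+WT only Peg3 and Peg3as.

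Inside a single state the lines were compared without a test, counting genes 2-fold apart where the higher sample had 5 CPM or more. At day 1, 4 of 69 genes were below KO in KO+WT (Bmp4, Mtap1a, Id1 and Nkx6-3), against 0.915% of 10605 genes, and 1 was higher (Dusp27), against 0.556%. At day 2, 8 of 59 genes were lower in KO+WT (Phlda1, Notum, Plaur, AU015836, Cphx, Capn2, Cntfr and Id1), against 1.85% of 11088 genes, and 2 were higher (6330407J23Rik and Foxd3), against 0.586%. The median difference of the members at day 2 was -0.27 on the log2 scale, and that of all genes 0.00. Between the rescue lines, Pla2g7, Peg3 and Peg3as were higher in KO+N-KR at day 1, 3 of 68 genes against 0.219%, and Peg3 and Peg3as at day 2, 2 of 56 against 0.111%.

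**Figure D5:**
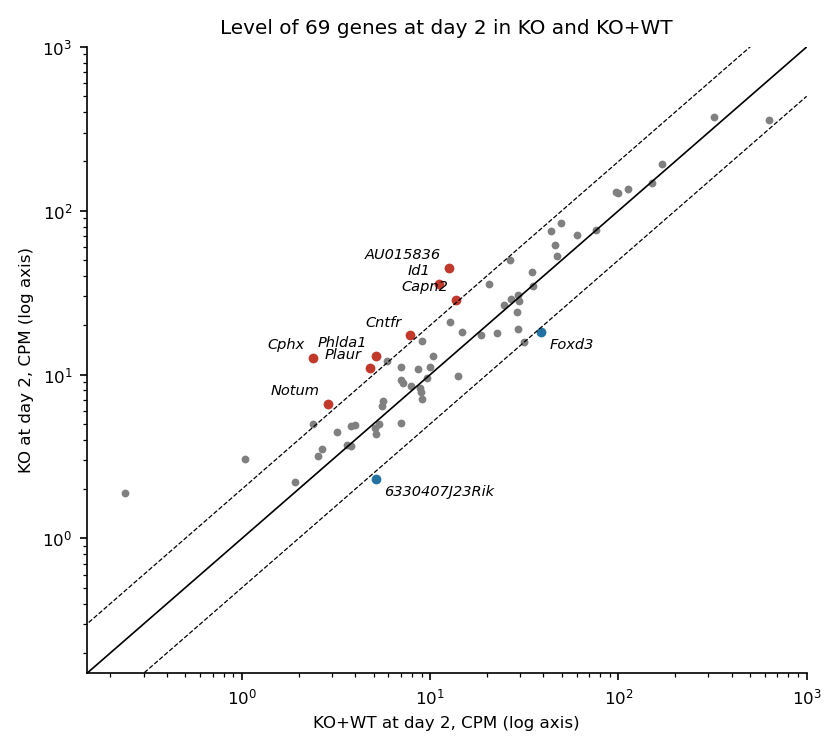
Each point is 1 of the 69 genes at day 2, with its CPM in KO+WT on the horizontal and in KO on the vertical axis (both log); the solid line is equality and the dashed lines are 2-fold. The 8 red points (2-fold lower in KO+WT with at least 5 CPM) lie above the upper dashed line and the 2 blue points, Foxd3 and 6330407J23Rik, below the lower one.

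Cphx departed from the f/f course in KO. It stood at 4.34, 11.7 and 3.97 CPM in f/f, 4.44, 9.99 and 12.7 CPM in KO, 5.66, 6.35 and 2.38 CPM in KO+WT, and 6.28, 9.52 and 3.89 CPM in KO+N-KR. In KO it was the only gene of the 69 whose day 2 sample was above its day 1 sample. In KO+WT the only gene whose day 1 sample was not the highest was Nkx6-3.

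Levels in KO were set beside those of f/f without a test, because the f/f samples chose the genes. At day 1 the median log2 ratio of KO to f/f was -0.05 and none of the 69 genes differed by 2-fold. At day 2 it was 0.16, with 5 genes at least 2-fold higher in KO (among them AU015836, Cphx, Mtap1a and Id1) and none 2-fold lower. The summed level of the 69 genes was 7032 CPM in f/f at day 1, 6744 in KO, 6823 in KO+WT and 8198 in KO+N-KR, against 2588 to 3156 CPM at day 2.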

How the data were processed

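The authors deposited raw read counts for 23284 gene symbols in a table of 30 columns; 24 columns matched the library labels and 6 were left aside. The submitters' processing notes name STAR 2.5.2b, DESeq2 and mm9. Counter, strand setting and annotation were not given in the sources used here. The 2 libraries of a group were summed. For the 9 samples of KO, KO+WT and KO+N-KR, edgeR 4.0.16 (R 4.3.3) fitted line plus state (quasi-likelihood F-test, TMM, filterByExpr; Benjamini-Hochberg adjustment over 14852 genes, threshold 0.05, 4 residual degrees of freedom, coefficient of variation 8.13%). The fit was tested on simulated data first. DESeq2 1.42.0 and the other alternatives are under the closing section. The 45 gene lists and the members were chosen with earlier results of these data known. Genes named by rule were the 10 members with the highest day 1 CPM and the 10 steepest in f/f, up to 5 in each direction of each line contrast, the 5 lowest ratios in each treated line and the members of any list, 41 in all; other members are named for completeness, and a few members are counted but not reported by name here. Coordinates come from RefSeq on GRCm38.p6, not from mm9, and the GENCODE annotation served only to find overlapping neighbours.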

Additional observations from a re-analysis of the deposited data

Results flagged for a closer look

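Cphx moved one way after day 1 in KO and the other way in both rescue lines. The log2 ratio of day 1 to day 2 was -0.329 in KO, 1.25 in KO+WT and 1.19 in KO+N-KR, and every library of KO moved opposite to every library of the rescue lines. The difference was not tested, since each line has 1 sample per state, and the highest Cphx level of the treated lines was 12.7 CPM.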

How the results depend on the processing

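The count of genes above both states at day 1 (67) was 67 or 68 under other scalings, no filter, DESeq2 and either library alone, 68 with 18 libraries kept apart, and 63 to 68 with 1 treated line left out; it was 234 of 241 genes chosen at 1.5-fold and 22 of 22 at 3-fold. The number of genes chosen in f/f was 241 at 1.5-fold and 22 at 3-fold, and 83 with TMM-scaled CPM. In the order KO+WT against KO higher and lower, KO+N-KR against KO+WT higher, KO+N-KR against KO higher and lower, the counts were 6, 13, 2, 11 and 5. They were 37, 32, 3, 48 and 18 for genes chosen at 1.5-fold and 1, 5, 0, 2 and 2 at 3-fold. With 18 libraries kept apart and no replicate block they were 13, 26, 15, 23 and 18, with 2 lower in KO+N-KR against KO+WT. With the replicate block they were 12, 26, 15, 23 and 18, again with 2 lower. The library names place replicates 1 and 2 in different series in every group, and what the series mark is not stated. Deviations between the 2 replicates were hardly shared between groups (correlations -0.04 to 0.03). The fits on 18 libraries treat near-repeat libraries as samples, with 13 and 12 residual degrees of freedom in place of 4. DESeq2 called 6 genes higher in KO+N-KR against KO+WT. Leaving out 1 state gave 2 to 8, 1 to 23, 0 to 5, 1 to 21 and 1 to 10. The share of all genes called is not given for these alternative fits. No direction reversed for a called gene. Of the line values of named genes under alternatives, 217 kept their call and 25 lost it, all of the latter without day 1 or day 2. The lowest count behind a day 1 value was 45 reads, in Nkx6-3 of KO+WT. Scaling moved the median of all genes by at most 0.08 (log2).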

Other observations

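Only 2 genes met the rule of size in all 3 treated lines and not in f/f, against 44 that met it in all 4 lines. Etv1, an ETS factor of the FGF-ERK feedback list, stood at 3.44, 26.4 and 18.3 CPM in f/f, 2.59, 27.6 and 13.1 CPM in KO, 3.94, 30.1 and 11.4 CPM in KO+WT, and 2.82, 32.3 and 14.9 CPM in KO+N-KR. Its f/f ratio of day 1 to the higher neighbour was 1.43. Grhl2, an epithelial transcription factor, stood at 4.13, 74 and 39.8 CPM in f/f and reached 63.5, 116 and 119.5 CPM at day 1 in KO, KO+WT and KO+N-KR, with an f/f ratio of 1.85. Both were named after their values had been seen.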
